A study of Homo sapiens with 4 samples.

Results

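The genes described here carry out MHC class I antigen presentation in A549 cells, a human lung adenocarcinoma line. They are 9 of the 19775 genes that a probe set of the Affymetrix Human Genome U133 Plus 2.0 array names alone. The heavy chains were HLA-B, HLA-C, HLA-E and HLA-F, and the light chain was B2M. The peptide transporter was represented by TAP1 and TAP2, and the immunoproteasome by PSMB8 and PSMB9. Every probe set that the annotation maps to 1 of these symbols was taken, 23 in all, and no probe set named a member together with another gene. Each gene was measured by 1 to 4 probe sets, and 21 of the 23 reached the limit used here for an expressed probe set, a mean log2 signal no lower than the median over the arrays, which was a signal of 66.3. The brightest probe set of each of the 9 genes passed it.

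The 4 arrays covered ARRB1 siRNA cells treated with nicotine, ARRB1 siRNA cells that were serum starved only, control siRNA cells treated with nicotine and control siRNA cells that were serum starved only, with 1 array each. The product of ARRB1, β-arrestin-1, binds stimulated G-protein-coupled receptors, dampens their signaling and serves as a scaffold for other proteins. The siRNA silencing was transient and was done in 1 cell line. All cells were transfected with siRNA and serum starved for 36 h, and the treated cells received 1 µM nicotine for 24 h. The study asked which genes nicotine regulates through β-arrestin-1. Pairs of signals within an siRNA group are given below with nicotine treated cells first and serum starved cells second. There were no replicates of a condition, so no difference between 2 arrays had a replicate check. As an aid, each log2 difference is set beside the SD of the same difference over the 501 probe sets nearest in mean signal. RNA was extracted from whole cultures, so fewer expressing cells and less RNA per cell cannot be told apart.

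Class I molecules show peptides from inside the cell to CD8 T cells. The proteasome cuts cytosolic proteins into peptides, and in the immunoproteasome the catalytic subunits PSMB8, PSMB9 and PSMB10 replace PSMB5, PSMB6 and PSMB7. TAP1 and TAP2 form the pump that carries the peptides into the endoplasmic reticulum. There a heavy chain pairs with β2-microglobulin, the product of B2M, and is loaded with peptide. Interferons are known to raise the transcription of most of these genes, and the regulator NLRC5 acts on class I promoters.

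ARRB1 itself had 224 and 191 on its brightest probe set in ARRB1 siRNA cells, against 331 and 352 in control siRNA cells. In each treatment 6 of its 7 probe sets had a lower signal after ARRB1 siRNA. Median signals of the 4 arrays lay between 68.6 and 73.3. All 8 epithelial genes listed for the line exceeded the median on every array. By the limma fit described below 1 of them fell, the adhesion gene CDH1, with 2827 and 3201 in ARRB1 siRNA cells against 4812 and 5218 in control siRNA cells (-0.74 ± 0.09, SE, adjusted p = 0.0016). Another, the aldehyde dehydrogenase gene ALDH1A1, rose, with 27356 and 24497 in ARRB1 siRNA cells against 21948 and 18640 in control siRNA cells (0.36 ± 0.07, SE, limma adjusted p = 0.022). Of all 12521 expressed genes, the fit called 349 lower and 278 higher. The part of the CDH1 and ALDH1A1 differences in the results on the members was not tested. Of 9 leukocyte genes with a probe set of their own, 1 or 2 exceeded the array median on each array, and their summed signal was 481 and 491 in ARRB1 siRNA cells and 418 and 397 in control siRNA cells. PTPRC, the leukocyte common antigen, CD3D and CD14 were not among the expressed genes. CD79A was the 1 expressed gene of this list, with 201 and 256 in ARRB1 siRNA cells against 235 and 149 in control siRNA cells.

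Signals of 8 of the 9 class I pathway genes were lower in ARRB1 siRNA cells than in control siRNA cells, in both treatments, as were those of 30% of the 12521 expressed genes. The exception was B2M. In nicotine treated cells the 8 genes had 50.7% to 74.5% of their control siRNA signal, and in serum starved cells they had 57.5% to 78.9%. The 2 pairs of arrays share no array. For these 8 genes, both ARRB1 siRNA signals lay below both control siRNA signals, as was the case for 22.6% of expressed genes. Of the 23 probe sets, 18 separated the siRNA groups in this way, against 23.4% of expressed probe sets. Differences were moderate in size. No member reached 2-fold lower in nicotine treated cells, where 1.4% of expressed genes did, or in serum starved cells, where 0.783% did. At a limit of 1.5-fold, 6 of the 9 were lower in nicotine treated cells against 6.43% of expressed genes, and 4 were lower in serum starved cells against 3.87%. The 4 were HLA-E, TAP1, TAP2 and PSMB9, and they were 1.5-fold lower in both pairs, as were 1.72% of expressed genes. The median log2 difference of the 9 genes was -0.73 in nicotine treated cells and -0.58 in serum starved cells, and that of all expressed genes was 0.02 in each.

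**Figure D1:**
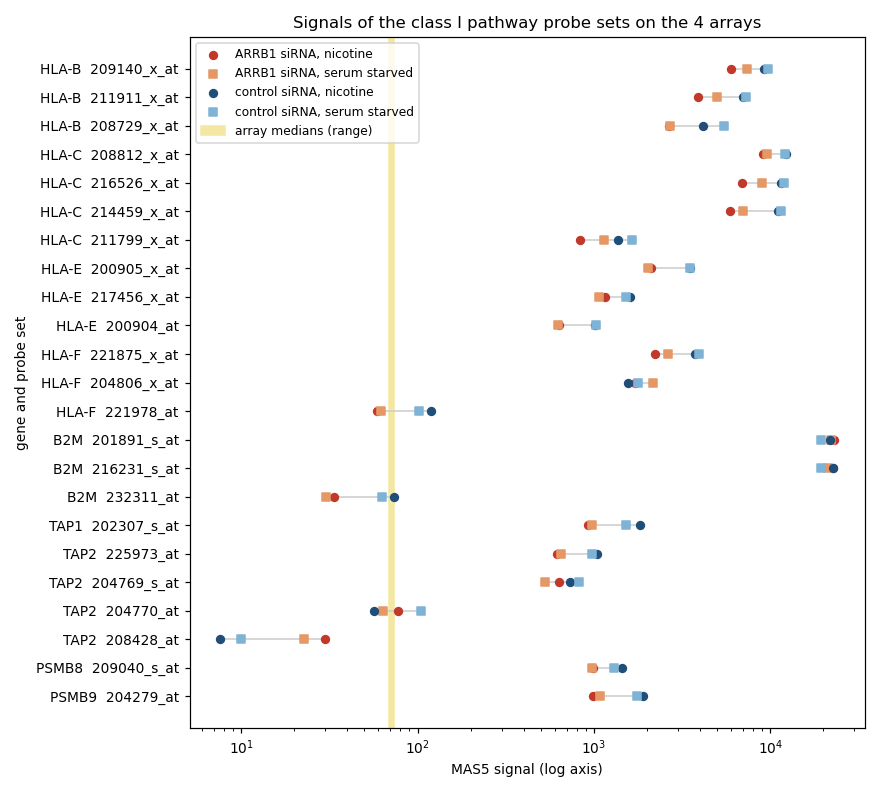
MAS5 signals on a log axis for all 23 member probe sets, 1 row per probe set and 1 point per array, with ARRB1 siRNA cells in red and orange and control siRNA cells in dark and light blue. The yellow band marks the array medians (68.6 to 73.3), and in 18 of the 23 rows both ARRB1 siRNA points lie left of both control siRNA points.

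Both catalytic immunoproteasome subunits among the members were lower with ARRB1 siRNA. PSMB9 (204279_at) had signals of 994 and 1078 in ARRB1 siRNA cells, against 1897 and 1768 in control siRNA cells. The log2 differences were -0.93 in nicotine treated cells (matched SD 0.33) and -0.71 in serum starved cells (matched SD 0.30). PSMB8 (209040_s_at) had 993 and 977 in ARRB1 siRNA cells, against 1452 and 1293 in control siRNA cells. Its log2 differences, -0.55 and -0.40, exceeded their matched SDs of 0.30 and 0.28. For both genes the ARRB1 siRNA arrays were the low ones and the groups did not overlap.

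TAP1, the transporter subunit whose gene lies head to head with PSMB9, had the lowest log2 difference of the 9 genes in nicotine treated cells. Its signals on 202307_s_at were 923 and 972 in ARRB1 siRNA cells, against 1823 and 1517 in control siRNA cells. The log2 difference was -0.98 in nicotine treated cells (matched SD 0.31) and -0.64 in serum starved cells (matched SD 0.29). Again both ARRB1 siRNA arrays were low, and the highest of the 4 signals was that of nicotine treated control siRNA cells.

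TAP2, the partner subunit, was measured by 4 probe sets that did not go the same way. The brightest, 225973_at, had 620 and 651 in ARRB1 siRNA cells, against 1047 and 982 in control siRNA cells, with log2 differences of -0.76 and -0.59. On 204769_s_at the signals were 633 and 528 in ARRB1 siRNA cells, against 736 and 818 in control siRNA cells. These groups did not overlap either, but the difference in nicotine treated cells, -0.22, was smaller than its matched SD of 0.33. The other 2 probe sets lay near or below the array medians. The groups overlapped on 204770_at, with 78.0 and 63.5 in ARRB1 siRNA cells against 56.8 and 105 in control siRNA cells. The dimmest, 208428_at, was higher in ARRB1 siRNA cells, at 29.8 and 22.6 against 7.60 and 9.98 in control siRNA cells, and probe sets of its signal had an SD of 1.56 in nicotine treated cells and 1.63 in serum starved cells. With the median over its 4 probe sets, TAP2 differed by 0.12 in nicotine treated cells, opposite in sign to the brightest probe set.

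HLA-E, a heavy chain that is a ligand of the NKG2A receptor of natural killer cells, was lower on all 3 of its probe sets. The brightest, 200905_x_at, had 2105 and 2026 in ARRB1 siRNA cells, against 3499 and 3521 in control siRNA cells, and log2 differences of -0.73 (matched SD 0.24) and -0.80 (matched SD 0.23). On 200904_at the signals were 637 and 625 in ARRB1 siRNA cells, against 1013 and 1032 in control siRNA cells. Within each siRNA group the nicotine treated and serum starved arrays were close, so that the values fell into a low pair and a high pair.

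HLA-B and HLA-C are the classical heavy chains among the members, and each was lower on every probe set. For HLA-B, 209140_x_at had 6014 and 7365 in ARRB1 siRNA cells, against 9200 and 9713 in control siRNA cells. HLA-B on 211911_x_at had 3918 and 4977 in ARRB1 siRNA cells, against 7027 and 7334 in control siRNA cells. On 208729_x_at HLA-B had 2665 and 2707 in ARRB1 siRNA cells, against 4158 and 5449 in control siRNA cells, and the log2 difference in serum starved cells, -1.01, was the 1 past 2-fold lower in that pair among the members' 21 fitted probe sets. The log2 differences of the HLA-B probe sets ran from -0.84 to -0.61 in nicotine treated cells and from -1.01 to -0.40 in serum starved cells.

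HLA-C probe sets differed from one another in the same manner. The brightest, 208812_x_at, had 9097 and 9556 in ARRB1 siRNA cells, against 12219 and 12114 in control siRNA cells, with log2 differences of -0.43 and -0.34. On 214459_x_at HLA-C had 5910 and 6969 in ARRB1 siRNA cells, against 11148 and 11539 in control siRNA cells, with log2 differences of -0.92 and -0.73. The remaining HLA-C probe sets, 216526_x_at and 211799_x_at, lay between these, at -0.72 and -0.71 in nicotine treated cells. All 4 separated the siRNA groups. The median over the 4 in nicotine treated cells was -0.71.

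HLA-F, a nonclassical heavy chain, had 1 probe set that went the other way. The brightest, 221875_x_at, had 2225 and 2638 in ARRB1 siRNA cells, against 3760 and 3943 in control siRNA cells, with log2 differences of -0.76 and -0.58. On 204806_x_at the signals were 1708 and 2153 in ARRB1 siRNA cells, against 1563 and 1787 in control siRNA cells, and these groups overlapped. The dim 221978_at had 58.7 and 61.7 in ARRB1 siRNA cells, against 119.98 and 101 in control siRNA cells, differences of -1.03 (matched SD 0.60) and -0.72 (matched SD 0.56). Of the 13 HLA probe sets of the members, 11 carry the suffix _x_at, by which the manufacturer marks probes that can bind related transcripts. Heavy chain genes are close relatives, so these 11 do not give independent readings of 4 genes. The other 2 HLA probe sets, 200904_at of HLA-E and 221978_at of HLA-F, were lower with ARRB1 siRNA in both treatments.

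B2M, whose protein pairs with every heavy chain named here, did not share the difference on its bright probe sets. Signals on 201891_s_at were 23151 and 22246 in ARRB1 siRNA cells, against 21860 and 19456 in control siRNA cells, and the log2 differences were 0.08 (matched SD 0.15) and 0.19 (matched SD 0.12). On 216231_s_at they were 22610 and 21270 in ARRB1 siRNA cells, against 22595 and 19538 in control siRNA cells. The sign for B2M depends on the scaling, since after quantile normalization the differences of 201891_s_at were -0.20 and -0.04. These probe sets are near the top of the signal range, with 153 probe sets on the arrays brighter than 201891_s_at, and whether their signals were at a ceiling was not tested. The third B2M probe set, 232311_at, had 33.7 and 30.1 in ARRB1 siRNA cells, against 73.2 and 63.1 in control siRNA cells. These groups did not overlap, but the differences of -1.12 and -1.07 compare with an SD of 0.86 and 0.91 at its signal.

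**Figure D2:**
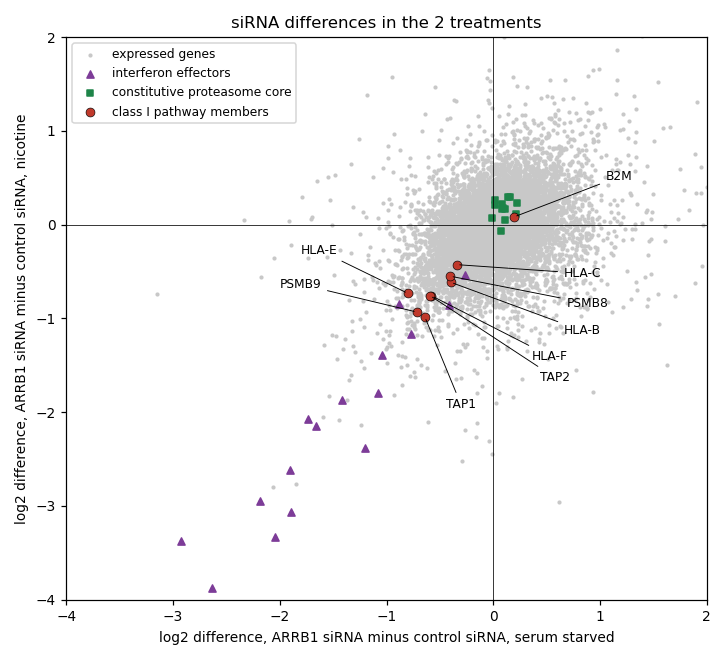
Log2 differences of ARRB1 siRNA minus control siRNA in serum starved cells (horizontal axis) and in nicotine treated cells (vertical axis), 1 point per expressed gene by its brightest probe set, with the 9 members in red, interferon effectors as purple triangles and the constitutive proteasome core as green squares. Both axes run from -4 to 2 and leave out 21 genes. All members except B2M lie below 0 on both axes, between -0.80 (HLA-E) and -0.34 (HLA-C) in serum starved cells and between -0.98 (TAP1) and -0.43 (HLA-C) in nicotine treated cells.

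The siRNA term was tested in a limma fit across all 27307 probe sets at or above the median signal, with siRNA and nicotine as additive terms. This fit sets 2 arrays against 2, with 1 degree of freedom left, and counts an interaction between siRNA and nicotine as error. By it, 8 of the 9 genes fell with ARRB1 siRNA on their brightest probe sets at an adjusted p under 0.05, as did 2.79% of expressed genes. The largest term was that of PSMB9, -0.82 ± 0.12 (SE, limma adjusted p = 0.0029). TAP1 followed at -0.81 ± 0.12 (adjusted p = 0.0047), HLA-E at -0.77 ± 0.10 (adjusted p = 0.0017), TAP2 at -0.67 ± 0.13 (adjusted p = 0.015) and HLA-F at -0.67 ± 0.10 (adjusted p = 0.0043). The smallest were those of HLA-B at -0.51 (adjusted p = 0.011), PSMB8 at -0.48 (adjusted p = 0.042) and HLA-C at -0.38 (adjusted p = 0.025). B2M had 0.14 ± 0.08 (adjusted p = 0.35). Over probe sets, 15 of the 21 that were fitted fell, against 2.37% of all those fitted, and none of the members' probe sets rose, against 1.93%. The 6 not called were 204769_s_at and 204770_at of TAP2, 204806_x_at and 221978_at of HLA-F, and 201891_s_at and 216231_s_at of B2M. The calls of TAP2 and HLA-F thus rest on 1 probe set each, which for HLA-F is of the _x_at kind. The calls depend on the filter and on how the fit pools the spread. With no filter on the signal 4 of the 9 were called, and HLA-B (adjusted p = 0.067), HLA-C (0.095), TAP2 (0.085) and PSMB8 (0.15) were not. Without the trend and robust settings no gene on the arrays passed, the lowest adjusted p over all probe sets was 0.30, and 8 of the 9 members had an unadjusted p under 0.05, as did 13.5% of probe sets.

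On the brightest probe sets of these genes, nicotine treated and serum starved cells differed little. In ARRB1 siRNA cells the median log2 difference of the 9 genes was -0.07, and in control siRNA cells it was 0.09. No member reached 1.5-fold in either siRNA group, while 4.7% of expressed genes were 1.5-fold lower and 2.16% higher with nicotine in ARRB1 siRNA cells, and 1.77% lower and 2.93% higher in control siRNA cells. In ARRB1 siRNA cells the values ran from -0.29 for HLA-B to 0.06 for B2M. In control siRNA cells they ran from -0.08 for HLA-B to 0.26 for TAP1 (matched SD 0.19). Over all 23 probe sets, 7 exceeded their matched SD in each siRNA group. On 204770_at of TAP2 the difference in control siRNA cells was -0.89 (matched SD 0.60), past 1.5-fold. On 208729_x_at of HLA-B it was -0.39 (matched SD 0.14). Of the 13 HLA probe sets, 10 were below 0 in each siRNA group. Of 27307 expressed probe sets, 13815 were below 0 in ARRB1 siRNA cells and 13813 in control siRNA cells. The nicotine term of the limma fit called none of the members. On its brightest probe set, none of the 9 had an unadjusted p under 0.05. Unadjusted p was under 0.05 on 216526_x_at and 211799_x_at of HLA-C and 204806_x_at of HLA-F, as for 10% of all probe sets fitted. The lowest adjusted p over the members' probe sets was 0.27. In the same fit 0.024% of expressed genes were called lower and 0.0879% higher.

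The log2 difference with nicotine was lower in ARRB1 siRNA cells than in control siRNA cells for 8 of the 9 genes, as for 48.5% of expressed genes, the exception being HLA-E. The median of this difference of differences was -0.16, less than the median matched SD of 0.26. After median centring of the arrays, the difference of differences was below 0 for 4 of the 9 and for 28.4% of expressed genes. Its median was then 0.0015 for the 9 genes and 0.17 for all expressed genes, against 0.01 for the latter as deposited. After quantile normalization it was below 0 for 8 of the 9 and for 47.4% of expressed genes. The medians were then -0.17 for the 9 genes and 0.02 for all expressed genes. No test of this interaction was made, since the 4 arrays leave no residual for it. Of the 23 probe sets, 10 had nicotine differences of opposite sign in the 2 siRNA groups, and in none did both exceed their matched SDs.

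**Figure D3:**
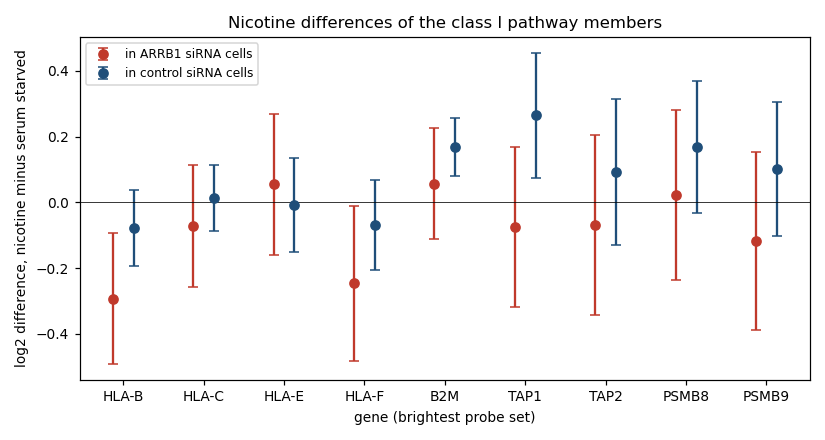
Log2 differences of nicotine treated minus serum starved cells for the brightest probe set of each gene, in ARRB1 siRNA cells (red) and in control siRNA cells (blue). Bars are the SD of the same difference over the 501 probe sets nearest in mean signal and are not replicate errors. All values lie between -0.29 and 0.26.

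Other genes of the pathway did not all go with the members. Of 8 genes of peptide loading and trimming, 1 fell by the limma fit, against 2.79% of expressed genes. This was ERAP1, the aminopeptidase that trims peptides in the endoplasmic reticulum, with 572 and 672 in ARRB1 siRNA cells against 870 and 897 in control siRNA cells (-0.51 ± 0.13, SE, adjusted p = 0.048). The tapasin relative TAPBPL had 142 and 155 in ARRB1 siRNA cells against 214 and 259 in control siRNA cells (adjusted p = 0.10). ERAP2 had 120.1 and 250.04 in ARRB1 siRNA cells against 134 and 136 in control siRNA cells, and HSPA5, an endoplasmic reticulum chaperone, had 19514 and 17871 against 18105 and 14776. Neither was called. The list median was -0.13 in nicotine treated and 0.00 in serum starved cells.

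Of 13 expressed genes of the constitutive proteasome core none was called in either direction, against 349 lower and 278 higher of all 12521 expressed genes. In each treatment 1 of the 13 was below 0 and the others were above it. Of expressed genes, 47.8% were below 0 in nicotine treated cells and 47.6% in serum starved cells. The median of the 13 was 0.18 in nicotine treated cells and 0.09 in serum starved cells. Their log2 differences with ARRB1 siRNA ran from -0.07 to 0.30 in nicotine treated cells and from -0.01 to 0.23 in serum starved cells. These genes lie near the top of the signal range, where the sign for B2M depended on the scaling. Their differences after quantile normalization were not examined. The 13 include PSMB5, PSMB6 and PSMB7, the subunits that the immunoproteasome replaces. PSMB7 had 11908 and 9824 in ARRB1 siRNA cells, against 9725 and 8837 in control siRNA cells. In nicotine treated cells the differences of PSMB1 (0.30, matched SD 0.18), PSMB7 (0.29, matched SD 0.22), PSMA7 (0.27, matched SD 0.21) and PSMA1 (0.23, matched SD 0.17) exceeded the matched SD. PSMA2 had 0.12 there (matched SD 0.20). In serum starved cells those of PSMA1 (0.23, matched SD 0.15) and PSMA2 (0.21, matched SD 0.18) exceeded it. PSMB10, the third exchanged subunit, had 902 and 791 in ARRB1 siRNA cells against 962 and 1019 in control siRNA cells (-0.23, adjusted p = 0.36). PSME1, a subunit of the proteasome activator, had 4793 and 4195 in ARRB1 siRNA cells against 5336 and 5125 in control siRNA cells (adjusted p = 0.21). The assembly factor POMP (adjusted p = 0.53) and PSME3 (adjusted p = 0.96) were not called either. The difference between these lists and the members was not tested.

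Among 12 expressed regulators of class I transcription, 1 rose and none fell by the fit, against 278 and 349 of all 12521 expressed genes. RELA, a subunit of NF-κB, was the one that rose, with 1946 on each ARRB1 siRNA array, against 1340 and 1196 in control siRNA cells (0.62 ± 0.11, SE, adjusted p = 0.011). NLRC5, the class I transactivator, had 178 and 199.8 in ARRB1 siRNA cells, against 295 and 324 in control siRNA cells, log2 differences of -0.73 and -0.70, and did not pass (adjusted p = 0.053). CIITA, the corresponding regulator of class II genes, was not among the expressed genes. IRF2, a factor that binds interferon response elements, had 491 and 589 in ARRB1 siRNA cells against 609 and 795 in control siRNA cells, and RFXAP, of the RFX complex, had 224 and 332 against 213 and 180. Neither was called.

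Of 11 MHC class II genes, 6 were expressed and HLA-DRA was among those not expressed. None of the 6 was called, against 349 lower and 278 higher of all 12521 expressed genes. HLA-DRB1, a class II β chain, had 106 and 132.8 in ARRB1 siRNA cells against 88.4 and 73.0 in control siRNA cells. CD74, the invariant chain, had 105 and 95.2 in ARRB1 siRNA cells against 94.2 and 59.3 in control siRNA cells, and HLA-DOA had 148 and 123 against 123 and 113. HLA-DMB, which edits class II peptides, was the 1 of the 6 below 0 in both treatments, against 30% of expressed genes. It had 665 and 763 in ARRB1 siRNA cells against 783 and 805 in control siRNA cells. The list median was 0.12 in nicotine treated cells and 0.15 in serum starved cells.

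Relatives of the class I heavy chains included 2 genes called lower among 7 expressed, against 2.79% of all expressed genes. HLA-G is a nonclassical heavy chain, and its probe sets, also of the _x_at kind, did not all go the same way. The brightest had 2136 and 2950 in ARRB1 siRNA cells, against 4876 and 4688 in control siRNA cells (-0.93 ± 0.13, SE, adjusted p = 0.0052). Another was called lower, with 2246 and 2916 against 4665 and 4437 (adjusted p = 0.0047). A dimmer HLA-G probe set, with 626 and 846 against 956 and 990, was not called (adjusted p = 0.11). The remaining HLA-G probe set had 702 and 3292 against 3500 and 3141 (adjusted p = 0.74). It was lower in nicotine treated cells only. FCGRT, the heavy chain of the neonatal Fc receptor, which also pairs with β2-microglobulin, had 443 and 596 against 682 and 822 (adjusted p = 0.045). MR1 had 460 and 467 in ARRB1 siRNA cells against 345 and 305 in control siRNA cells, and MICB had 1829 and 1590 against 1994 and 2007. Neither passed.

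Genes that interferon induces were also lower with ARRB1 siRNA. All 16 interferon effector genes were lower with ARRB1 siRNA in both treatments, as were 30% of expressed genes. By the fit 15 fell, against 2.79% of expressed genes. The list median was -2.11 in nicotine treated cells and -1.54 in serum starved cells. OAS2, an antiviral enzyme, had 118 and 123 in ARRB1 siRNA cells, against 1217 and 936 in control siRNA cells, and MX1, an antiviral GTPase, had 472 and 646 against 3633 and 2937. XAF1, an interferon-induced proapoptotic protein, had 87.0 and 187 in ARRB1 siRNA cells against 1278 and 1162 in control siRNA cells. IFIT1, which binds foreign RNA, was the 1 not called, with 865 and 1627 against 8735 and 6694 (adjusted p = 0.15). IRF9, a subunit of the factor that type I interferons activate, had 1117 and 1252 in ARRB1 siRNA cells against 2307 and 2198 in control siRNA cells (-0.93 ± 0.11, SE, adjusted p = 0.0011). IRF7 had 528 and 615 against 1664 and 1569 (adjusted p = 0.00014). The other 9 expressed genes of interferon signaling, receptors and kinases among them, were not called, IL10RB and IFNLR1 among them with adjusted p of 0.077 and 0.52. Of the interferon genes themselves, 1 of 7 was expressed, IFNE, with 208 and 162 in ARRB1 siRNA cells against 139 and 92.2 in control siRNA cells (adjusted p = 0.14). The part of the interferon response in the class I differences was not tested.

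**Figure D4:**
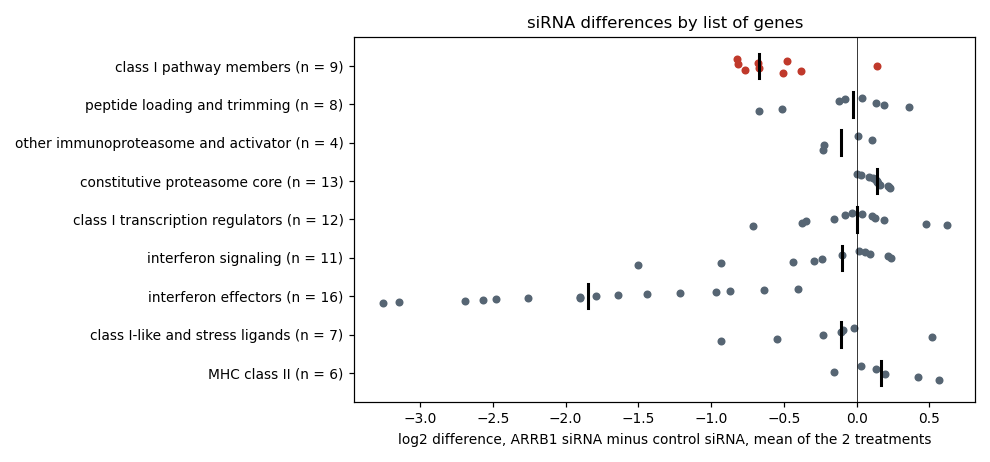
Log2 differences of ARRB1 siRNA minus control siRNA, averaged over both treatments, with 1 point per expressed gene (brightest probe set) and a black bar at the median of each list. The members (red) have a median of -0.67, the interferon effectors of -1.85 and the constitutive proteasome core of 0.14.

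Profiles over the 4 arrays were compared with the median profile of the 9 genes, by the root mean square distance of centred log2 signals. Among 12512 other expressed genes, the 8 nearest were SLC1A1, PREP, SLC9D1, SOX2, FAM120C, CTSS, AQP3 and CELSR1, at 0.01 to 0.03. CTSS encodes cathepsin S, a protease of class II antigen processing, and had 3035 and 3375 in ARRB1 siRNA cells against 4975 and 5078 in control siRNA cells. SOX2, a stem cell transcription factor, had 1400 and 1507 against 2268 and 2139. Of the members themselves, TAP2 was nearest at 0.04, with 14 other genes nearer, and B2M was farthest at 0.39, with 8149 nearer. Likeness over 4 arrays is thus shared by many genes and is given as a description.

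No promoter sequence was at hand for HLA-E, which was also lower with ARRB1 siRNA. Promoter sequences of the other 8 members were taken from RefSeq (GRCh38.p14), as the 250 bases before the annotated start of the gene. They were searched on both strands for the core of the interferon-stimulated response element, which is GAAA, any 2 bases and GAAA again, and for the shorter core bound by interferon regulatory factors, AANNGAAA, which can overlap the first. Those of TAP1, HLA-F, HLA-B and HLA-C, which were lower with ARRB1 siRNA, and that of B2M are shown, and each holds a match. Those of TAP2, PSMB8 and PSMB9, also lower on their brightest probe sets, are not shown. Capitals mark matches to either motif on either strand, so that TTTC is GAAA read on the other strand.
TAP1 (chr6:32853705-32853954, minus strand): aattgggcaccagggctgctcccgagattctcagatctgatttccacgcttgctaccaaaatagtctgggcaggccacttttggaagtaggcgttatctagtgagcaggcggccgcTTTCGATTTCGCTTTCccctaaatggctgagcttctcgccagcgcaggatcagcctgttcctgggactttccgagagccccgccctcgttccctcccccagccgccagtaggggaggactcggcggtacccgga
B2M (chr15:44711267-44711516, plus strand): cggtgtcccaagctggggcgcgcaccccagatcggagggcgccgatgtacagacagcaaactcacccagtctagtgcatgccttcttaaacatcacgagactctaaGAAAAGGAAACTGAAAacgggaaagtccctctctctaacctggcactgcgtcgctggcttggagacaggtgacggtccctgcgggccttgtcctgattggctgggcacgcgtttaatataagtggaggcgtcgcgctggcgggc
HLA-F (chr6:29723184-29723433, plus strand): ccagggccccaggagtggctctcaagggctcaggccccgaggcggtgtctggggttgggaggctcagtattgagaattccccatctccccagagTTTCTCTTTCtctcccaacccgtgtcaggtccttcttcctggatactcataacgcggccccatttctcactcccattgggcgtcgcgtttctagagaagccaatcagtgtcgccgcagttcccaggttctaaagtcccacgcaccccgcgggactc
HLA-B (chr6:31357180-31357429, minus strand): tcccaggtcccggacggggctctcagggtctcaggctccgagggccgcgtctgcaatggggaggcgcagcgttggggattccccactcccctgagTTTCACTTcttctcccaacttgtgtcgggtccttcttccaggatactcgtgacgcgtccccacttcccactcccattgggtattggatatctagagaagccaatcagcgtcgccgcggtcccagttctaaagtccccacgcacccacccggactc
HLA-C (chr6:31272093-31272342, minus strand): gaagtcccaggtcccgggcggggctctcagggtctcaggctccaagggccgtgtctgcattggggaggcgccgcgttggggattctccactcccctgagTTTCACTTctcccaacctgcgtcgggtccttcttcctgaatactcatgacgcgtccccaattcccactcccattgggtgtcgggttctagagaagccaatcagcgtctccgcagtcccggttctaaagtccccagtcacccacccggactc

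The longer motif was found in the windows of 4 of the 8 members, TAP1, TAP2, HLA-F and B2M, against 3.02% of 35116 promoter windows of that length. The shorter one was found in 6, the same 4 with HLA-B and HLA-C, against 20.3%. In TAP1 and B2M a pair of longer matches overlapped, starting 134 and 128 bases before the TAP1 start and 144 and 138 before the B2M start. The windows of PSMB8 and PSMB9 held neither motif. Both TAP1 matches lie between the starts of TAP1 and PSMB9, outside the 250 bases taken for PSMB9. The part of these motifs in the signal differences was not tested. The starts of TAP1 and PSMB9 lie 488 bases apart on opposite strands. The HLA-B and HLA-C windows were identical at 226 of 254 aligned positions, 89.0%. A match is a description of the letters and was not tested as a binding site.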

How the data were processed

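RNA of 4 A549 cultures was hybridised to Affymetrix Human Genome U133 Plus 2.0 arrays. The authors deposited linear signal intensities made with MAS5, which the submitters' notes place in GCOS 1.4, while the text of the study names Expression Console. The 2% trimmed mean of every array was 500.1. The log2 transformation and gene centring described in the methods are not in these values, and detection calls were not used here. After 62 control probe sets were left out, 54613 were analysed, of which 41091 had 1 symbol, 1801 several and 11721 none in GEO's platform annotation.

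Differences between arrays were taken on the log2 scale, with no floor on the signal (Python 3.11.15, numpy 2.4.6, pandas 2.3.3, matplotlib 3.10.9). A gene was represented by its brightest 1-symbol probe set and called expressed when its mean log2 signal reached the median. A limit of 2-fold, which the submitters use, was the main one, with 1.5-fold beside it. The additive fit used limma 3.58.1 (R 4.3.3) with trend and robust moderation and Benjamini-Hochberg adjustment over all 27307 probe sets fitted. On simulated data for the siRNA term over 27307 probe sets, it called 170 of 200 probe sets changed by 1 on the log2 scale and 20 unchanged ones, so that false calls exceeded the nominal rate. The siRNA terms of the members were all smaller than 1 in size, and recovery of smaller changes by the fit was not simulated. The labels do not say whether the cultures were independent, and precision is limited by the number of arrays.

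The text names every probe set of the 9 members, up to 4 expressed genes of each other pathway list with the largest mean siRNA difference, and the 8 genes nearest in profile. It also names genes outside this rule, among them PSMB5, PSMB6 and PSMB7, CIITA, HLA-DRA and the markers PTPRC, CD3D and CD14, chosen for their known roles. The epithelial markers CDH1 and ALDH1A1, the leukocyte marker CD79A and the proteasome gene PSMA7 were named after their values were seen. Members and lists were chosen with earlier results of these data known. PSME2 and PSMA6 were on the lists and had no probe set of their own in the annotation used here.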

Additional observations from a re-analysis of the deposited data

How the results depend on the processing

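The lower signals of the 8 genes other than B2M kept their sign in both pairs of arrays with each array centred on its median, after quantile normalization, with a floor on the signal and without _x_at probe sets, for those measured. The exception was TAP2 with the median over its probe sets (0.12 in nicotine treated cells). The median of the members ranged from -0.76 to -0.65 in nicotine treated cells and from -0.66 to -0.56 in serum starved cells, and with nicotine from -0.11 to -0.0017 in ARRB1 siRNA cells and from -0.0088 to 0.17 in control siRNA cells. Members at least 2-fold lower with ARRB1 siRNA numbered 0 in both pairs. At 1.5-fold they numbered 6 in nicotine treated and 4 in serum starved cells, and without _x_at probe sets 1 of 7 was 2-fold lower in nicotine treated cells (HLA-F). The additive fit takes the siRNA difference within each treatment, and no paired analysis was possible beyond it because each condition had 1 array. No array could be left out of the additive fit, which would then have no residual.

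The siRNA term called 8 members lower in the main fit, 4 with no filter and 0 without trend and robust settings. Over all probe sets it called 646 lower and 526 higher, 123 and 61 with no filter, 0 and 0 without trend and robust settings, and 320 higher after quantile normalization. HLA-C was not called with centred arrays (adjusted p = 0.17), nor PSMB8 with centred arrays (0.11) or after quantile normalization (0.062). The nicotine term called 6 probe sets lower and 63 higher, 53 and 163 with centred arrays, 24 and 156 with a filter at the 75th percentile, 0 and 0 with no filter, 0 and 0 without trend and robust settings, and 3 lower after quantile normalization, and it called no member under these settings. The cause of these shifts was not tested.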
